A study of Mus musculus with 4 samples.

Results

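OTX2 binding was examined at 9 mouse genes that carry the activin signal into the cell, restrain it or release its ligands. They include the receptor genes Acvr1b, Acvr2a and Acvr2b and the signal transducer genes Smad2, Smad3 and Smad4. The others are the inhibitory SMAD gene Smad7 and the convertase genes Furin and Pcsk6. The regions at the 9 genes were taken from 4 deposited lists of OTX2 regions. Each region went to the protein-coding gene that contains its midpoint, to the shortest one where several do, and otherwise to the closest gene end if that end was no more than 100 kb away. By this rule 26 of the 39615 regions in the lists belonged to the 9 genes, out of 34616 that could be given to any protein-coding gene. The 9 genes were named for their pathway and not for how many regions they held. Earlier results of these data were known, however, when the 9 genes and the gene lists compared with them were chosen.

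The regions come from CUT&RUN, in which an antibody tethers a nuclease to a chromatin protein so that the DNA beside it is cut out and sequenced. For the libraries in the labels, anti-HA antibody was used on an HA tag attached to OTX2, in mouse cells of a BL6/129 hybrid background. The libraries described in the labels are from the primitive streak (PS) stage, 3 with anti-HA from the lines 7H, 7H1 and 7H2 OTX2-dTAG-EGFP, and 1 with control IgG from the line 7H2 OTX2-dTAG-EGFP. All these lines thus carry the tagged OTX2, and a line without the tag was not analysed here. The labels describe no DE or EPI library, so the antibody, line and control behind the DE only regions are not known from them. PS cells had 16 h in Activin A at 40 ng/ml with CHIR at 3 uM, and definitive endoderm (DE) cells a further 24 h in Activin A at 100 ng/ml with LDN at 100 nM. EpiSCs, the starting cells, were grown with Activin A at 20 ng/ml, FGF2 at 12.5 ng/ml and NVP at 175 nM. EpiSCs, PS cells and DE cells thus all received Activin A, a ligand of the pathway described here. The lists are named EPI and PS, PS only, PS and DE, and DE only, after the stages in which a region was found, and the labels do not spell out EPI. They hold positions alone, with no height and no value per library, so no spread between replicates and no depth can be given, and cell identity could not be checked against marker genes. All counts below are descriptions, no test was run on them, and their intervals cover counting error only.

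Activin and NODAL bind type II receptors, here the products of Acvr2a and Acvr2b, which activate the type I receptor encoded by Acvr1b. The activated type I receptor phosphorylates SMAD2 and SMAD3, which join SMAD4 and enter the nucleus to act on target genes, while SMAD7 is an inhibitor of the receptors and is itself induced by the pathway. The NODAL precursor is cut by the proprotein convertases FURIN and PACE4, and PACE4 is the product of Pcsk6. In the mouse embryo this pathway is needed to form the primitive streak and the definitive endoderm.

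Of the 6 genes with a promoter window in the RefSeq table, 1 had a region over it (250 bases before the start site to 50 after it, build GRCm38.p6), and this was Acvr2b. Its window at chr9:119401928-119402227, plus strand, is shown because it is where OTX2 was recorded closest to the start of a receptor gene. Capitals mark the 73 bases of a DE only region that covers positions -235 to -163 from the start site:
Acvr2b: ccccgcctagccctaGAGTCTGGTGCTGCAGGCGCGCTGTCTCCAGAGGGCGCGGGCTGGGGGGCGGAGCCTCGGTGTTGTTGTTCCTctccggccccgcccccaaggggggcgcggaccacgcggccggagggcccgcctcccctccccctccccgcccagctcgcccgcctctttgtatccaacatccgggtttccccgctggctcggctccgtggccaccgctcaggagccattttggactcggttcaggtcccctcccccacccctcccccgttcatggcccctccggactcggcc
A second DE only region, upstream of Smad3, reached into the promoter window of the long noncoding RNA gene Gm35941 on the minus strand. The 52 shared bases at chr9:63780950-63781001, positions -250 to -199 from the start of Gm35941, are shown because they are the only other part of the 26 regions for which sequence was at hand, and capitals mark that all of them lie in the region:
Gm35941: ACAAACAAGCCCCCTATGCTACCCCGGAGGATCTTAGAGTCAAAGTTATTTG
In both sequences the RefSeq strand of the named gene is read 5′ to 3′. The Acvr2b stretch had a GC content of 69.9%, and the Gm35941 stretch had 46.2%. The hexamer TAATCC, the core bound by OTX2 and related homeodomains, was found on neither strand of either promoter window. One match to the SMAD letters CAGAC lay within the Acvr2b region, read as GTCTG on the strand shown, and the Gm35941 window had 0.

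OTX2 regions at the 9 genes were mostly regions of DE. The genes held 0 EPI and PS regions, 1 PS only region at Acvr1b, 3 PS and DE regions at Smad2, Smad7 and Furin, and 22 DE only regions at Smad2, Smad3, Smad7, Acvr2b, Furin and Pcsk6. Acvr2a and Smad4 had 0 in every list. DE only regions made up 84.6% of the 26 (95% Wilson interval 66.5 to 93.8), against 79.4% of all regions given to protein-coding genes. PS and DE regions made up 11.5% (4.0 to 29.0) against 15.6%, and PS only regions 3.85% (0.682 to 18.9) against 4.12%. The background shares lie inside these intervals. The 0 EPI and PS regions allow a share of up to 11.5% of 26, against 0.968% over all genes.

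The share of the 9 genes that were hit was read against that of all 21887 protein-coding genes. In EPI and PS it was 0 of 9 against 1.45%, in PS only 1 of 9 (11.1%) against 5.60%, in PS and DE 3 of 9 (33.3%) against 16.3%, and in DE only 6 of 9 (66.7%) against 50.1%. Counting all lists, 7 of the 9 genes had a region, against 54.7% of all genes, and 4 of 9 had one in a list that includes PS, against 20.1%. The 9 genes have long territories, meaning the stretch from which the assignment rule gives regions to a gene. These ranged from 41.6 kb at Furin to 273 kb at Pcsk6, with 8 of the 9 above the median of 45.1 kb over all genes. Over their summed 1.23 Mb the 9 genes had 17.9 DE only regions per Mb, against 14.4 per Mb over all genes, a ratio of 1.25 (exact 95% Poisson interval 0.781 to 1.89). The PS and DE rate was 2.44 per Mb against 2.82 per Mb, a ratio of 0.867 (0.179 to 2.53). Per base of territory, neither list differed from the background beyond counting error, and with 0.215 EPI and PS regions due at the mean rate, a lack of that class was not detectable.

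**Figure D1:**
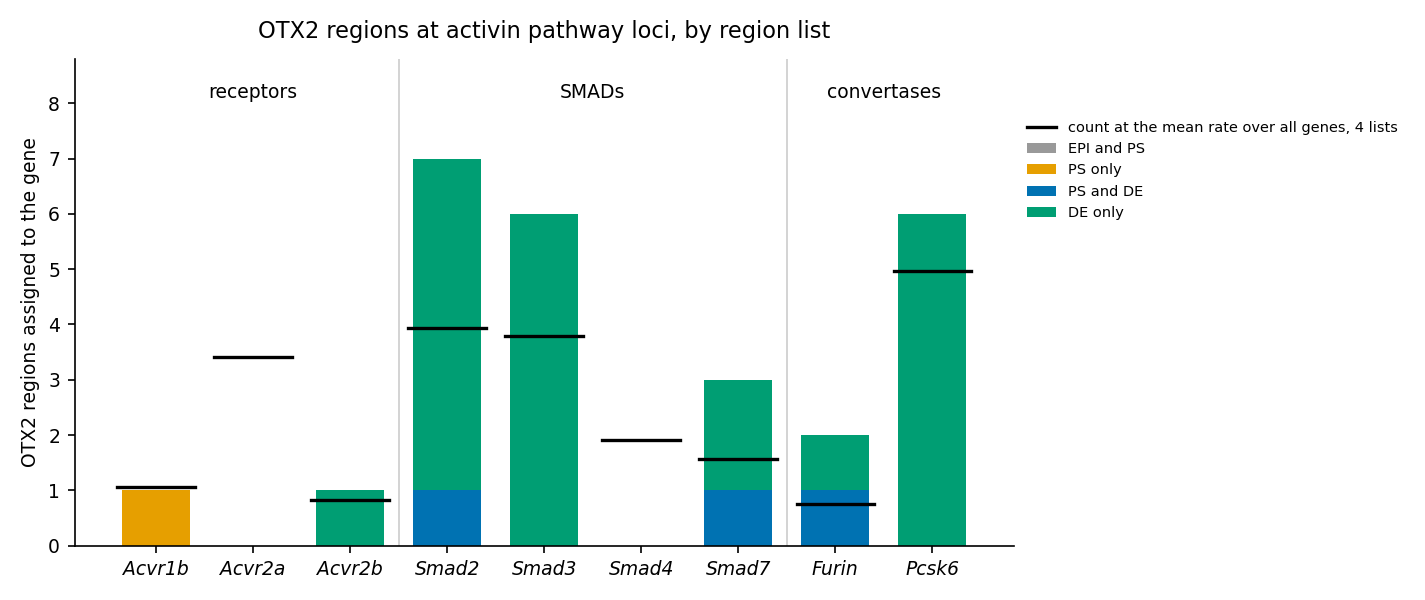
Number of OTX2 regions (vertical axis) given to each of the 9 genes, stacked by region list; black lines mark the number due at the mean rate over all gene territories, all 4 lists together. Smad2 had 7 regions against 3.93 due, Pcsk6 6 against 4.96, while Acvr2a had 0 against 3.42.

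The 3 receptor genes together had 2 regions in 294 kb of territory, 6.81 per Mb, against 18.1 per Mb over all genes and lists. The number due at that mean rate was 5.33, which lies inside the exact 95% Poisson interval of the count, 0.242 to 7.22. With assignment within 1 Mb the receptor genes had 10 regions, 8 of them at Acvr2a. That limit lengthens territories, so the 5.33 does not apply to it, and no number due was computed for it. Acvr1b (chromosome 15, 101174072 to 101213684, mm10), the type I receptor gene, had a single region, in PS only, at 101182726 to 101182875. It lay inside the gene, 8.73 kb downstream of the start site, and the next OTX2 region of any list was 33.9 kb away. Acvr1b was the only one of the 9 genes with a PS only region, and it had 0 regions in both lists that include DE. Its neighbours differed from it: Acvrl1, a type I receptor gene of the same superfamily 28.7 kb below it, had 1 PS and DE and 4 DE only regions, and Grasp, 10.5 kb above it, had 2 and 7. The Grasp region closest to Acvr1b, in DE only, lay 7.33 kb outside the receptor gene.

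Acvr2b (chromosome 9, 119401583 to 119442148), a type II receptor gene, had a single DE only region at 119401943 to 119402015. This is the promoter region printed above, with its midpoint at position -199 from the RefSeq start site, and inside the gene span because the span reaches further out. It was 73 bp wide, and 87.9% of all DE only regions were at least as wide. A PS only region 12.1 kb from the gene, at 119389422 to 119389518, belonged to the neighbour Xylb. A DE only region overlapped the promoter window of 1 of the 6 genes that have one in the RefSeq table, against 15.9% of 17492 protein-coding genes. Whether a region inside a gene is exonic or intronic was not analysed here, since gene tables with spans and start sites alone were used.

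Acvr2a (chromosome 2, 48814109 to 48903264), the other type II receptor gene, had 0 regions, against 2.72 in DE only at the mean rate for a territory as long as its 189 kb. This 0 depended on the distance limit and on the rule for regions inside genes. Below the gene, on its upstream side, the next protein-coding gene is Zeb2, 3697 kb away, and regions in that interval were left without a gene beyond 100 kb. With a limit of 1 Mb Acvr2a had 1 PS only region, 398 kb from the gene, 1 PS and DE region, 246 kb from it, and 6 DE only regions, 257 to 812 kb from it. On the other side a DE only region at 48915824 to 48915968 lay 12.6 kb from Acvr2a, inside its neighbour Orc4. Where the nearest gene end alone decides, this region went to Acvr2a, which then had 1.

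SMAD genes held 16 of the 26 regions, 25.9 per Mb of their 619 kb, against 18.1 per Mb over all genes. The number due was 11.2, inside the exact 95% Poisson interval of 9.15 to 26.0. With all RefSeq genes competing, which shortens territories, the SMAD genes had 8 regions, and no number due was computed for that setting. Smad2 (chromosome 18, 76241090 to 76311748), whose product is phosphorylated by the activated receptor, had the most, 1 PS and DE region and 6 DE only regions. The numbers due at the mean rate in its 217 kb were 0.612 and 3.12. Of all protein-coding genes, 4.50% had at least 6 DE only regions, and 8.03% had a territory at least as long. The PS and DE region lay inside the gene at 76245701 to 76245876, 4.70 kb from its lower-coordinate end. A pair of DE only regions sat closer to that end, at 76241145 to 76241381 and 76241831 to 76241897, with midpoints 0.173 and 0.774 kb inside the gene and 449 bp between them. Both further DE only regions inside the gene, at 76274789 to 76274956 and 76289106 to 76289212, lay 33.8 and 48.1 kb from the same end. The remaining pair was outside the gene, 36.3 and 40.4 kb below it, at 76204663 to 76204868 and 76200567 to 76200718. The tables used here give no strand for Smad2, Smad4 or Smad7, so the lower-coordinate end is not named as start or end.

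Smad3 (chromosome 9, 63646766 to 63757994), the second receptor-activated SMAD of the pathway, had 6 regions, all in DE only, against 3.02 due at the mean rate. Unlike Smad2 it had 0 regions in the lists that include PS, and the closest region shared by PS and DE was 259 kb off, at its neighbour Smad6. The 6 regions lay around the start site. Within the gene they lay 7.37, 22.1 and 39.0 kb downstream of the start, at 63750399 to 63750854, 63735833 to 63735919 and 63718887 to 63719093. Before the gene they lay 13.8, 23.0 and 32.4 kb upstream, at 63771701 to 63771967, 63780950 to 63781121 and 63790371 to 63790450. The region at 7.37 kb was 456 bp wide, the widest of the 26, and 0.350% of all DE only regions were at least that wide. The regions at 13.8 and 23.0 kb upstream flanked Gm35941 (63772754 to 63780751), a long noncoding RNA gene, at 0.920 and 0.284 kb from its ends by their midpoints. Where all RefSeq genes and not only protein-coding ones compete for regions, Smad3 had 2 DE only regions, since the other 4 lay in or nearer to Gm51710, Gm35941 and Gm39359, all long noncoding RNA genes.

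Smad7 (chromosome 18, 75367365 to 75395935), the inhibitory SMAD, had 1 PS and DE region and 2 DE only regions, against 0.244 and 1.24 due at the mean rate. The PS and DE region, at 75370736 to 75370833, lay inside the gene 3.42 kb from its lower-coordinate end. The DE only regions, at 75334013 to 75334098 and 75330934 to 75331096, lay outside, 33.3 and 36.4 kb below that end, and closer to Gm20544, a long noncoding RNA gene. Smad4 (chromosome 18, 73634790 to 73703791), which encodes the common partner of the receptor-activated SMADs, had 0 regions in a territory of 106 kb, where 1.52 DE only regions were due. The nearest OTX2 region was a DE only region 52.0 kb from Smad4, at 73582745 to 73582807, and the nearest PS and DE region was 62.1 kb away, both belonging to Mex3c. A count of 0 does not set Smad4 apart from all protein-coding genes, of which 49.9% had 0 DE only regions. Only 26.1% of all genes had a territory at least as long, and genes of like length were not compared.

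Both convertase genes had DE only regions, in different arrangements. Together they had 8 regions of any width, with 5.71 due (exact 95% Poisson interval of the count 3.45 to 15.8). Where regions under 150 bp were left out they had 1 region, and no number due was computed for that setting. Pcsk6 (chromosome 7, 65862136 to 66050386, plus strand) had 6 regions, all in DE only and all inside the gene, against 3.93 due for its territory of 273 kb. From the start site they lay at 18.7, 83.4, 83.7, 151, 185 and 186 kb. The pair at 83.4 and 83.7 kb, at 65945530 to 65945608 and 65945733 to 65945860, was separated by 124 bp, and the last pair, at 66046676 to 66046782 and 66048241 to 66048324, by 1.46 kb. The nearest PS and DE region was 163 kb from Pcsk6. Furin (chromosome 7, 80389194 to 80405441, minus strand) had 0 regions inside the gene and 2 upstream of it. Their midpoints were 17987 bp beyond the upstream gene end for the one in PS and DE (80423358 to 80423499) and 17520 bp for the one in DE only (80422846 to 80423077), with 280 bp between them. Blm, the next protein-coding gene on that side, was 31.6 kb from the PS and DE region, and the pseudogene Gm15544 was 5.72 kb from it. Furin had 0 regions where all RefSeq genes compete. A DE only region closer to Furin, 2.71 kb from its other end at 80386364 to 80386483, belonged to the neighbour Fes.

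**Figure D2:**
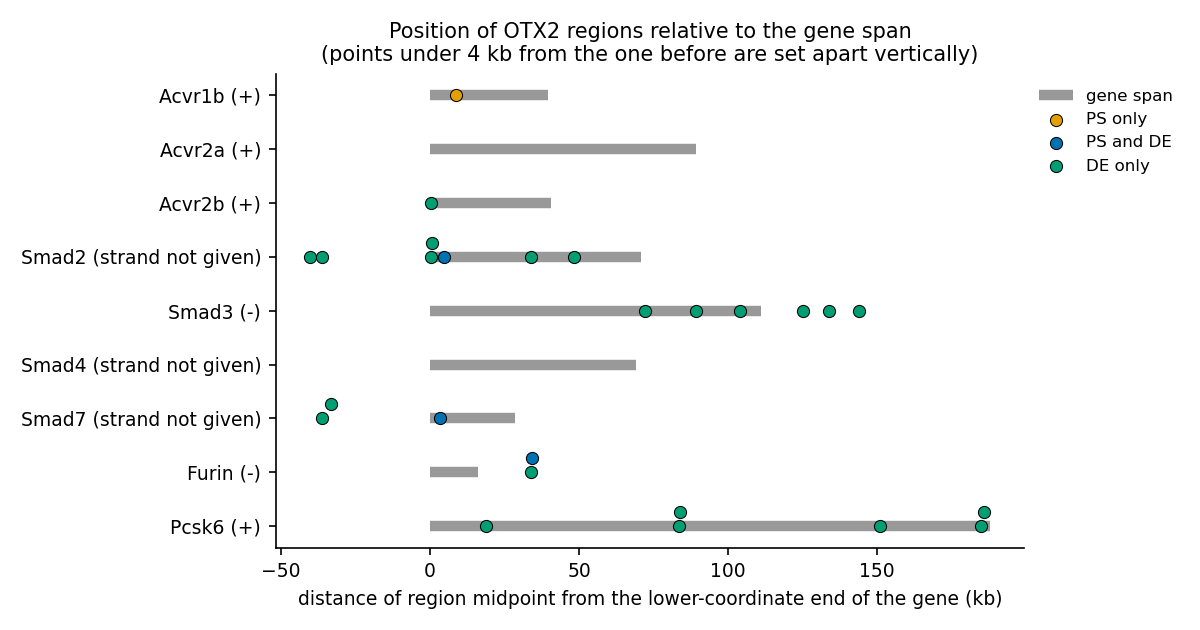
Position of each OTX2 region midpoint, in kb from the lower-coordinate end of its gene (horizontal axis), for the 9 genes; grey bars are gene spans and colours give the region list. Pcsk6 regions are all inside the gene and Furin regions are both outside it, 17520 and 17987 bp beyond its upstream end, while Smad3 regions lie on both sides of its start, at the right end of the bar.

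The share of regions inside genes was within counting error of that of the lists as a whole. Of the 26 regions, 17 were inside the gene they were given to, 65.4% (95% Wilson interval 46.2 to 80.6), against 53.9% of all assigned regions. Within 1 kb of a gene end lay 3 of 26, a pair at Smad2 and the one at Acvr2b, 11.5% (4.0 to 29.0) against 14.9%. Another OTX2 region lay within 1 kb for 6 of 26, 23.1% (11.0 to 42.1) against 16.7%. Those 6 were the pairs described above at Smad2, Furin and Pcsk6. The Furin pair was the only one that joined 2 lists, PS and DE with DE only.

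Smad3 and Smad2 had wide regions and Pcsk6 narrow ones. The 6 Pcsk6 regions were 67 to 128 bp wide with a median of 87.0 bp, and 1 of them reached the median of the DE only list, 119 bp. Smad3 regions were 80 to 456 bp wide with a median of 190 bp, and 4 of 6 reached it. Smad2 regions were 67 to 237 bp wide with a median of 168 bp, and 5 of 7 reached the median of their own list. The ranges of the 3 genes overlap. With regions under 150 bp left out, the 9 genes kept 10 DE only regions, 4 each at Smad2 and Smad3 and 1 each at Smad7 and Furin, and Pcsk6 and Acvr2b had 0. The same setting left 1 PS and DE region, at Smad2. Width is not a measure of binding strength in these lists, and its relation to depth was not tested.

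**Figure D3:**
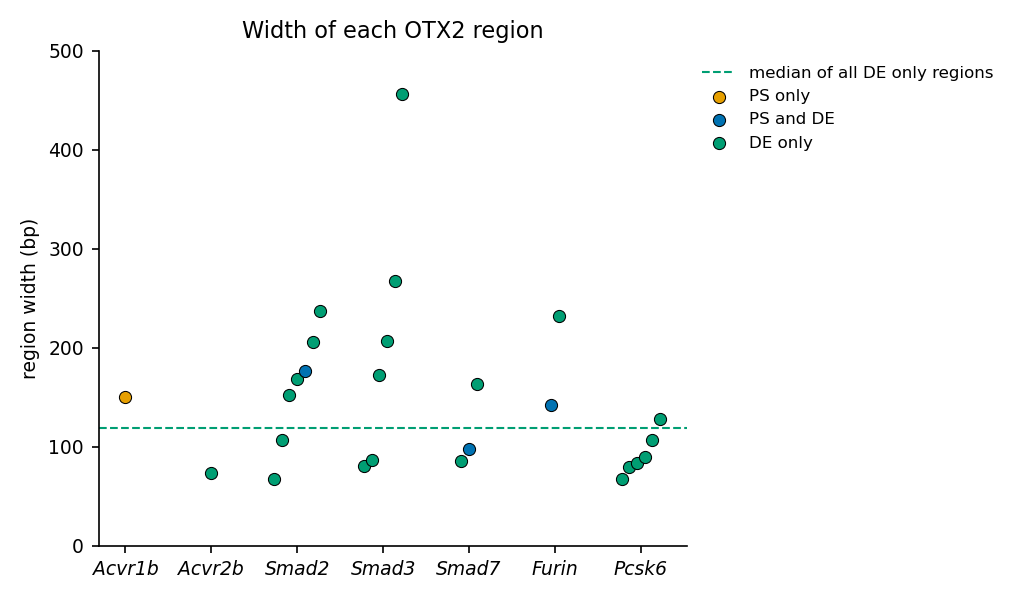
Width in bp (vertical axis) of each OTX2 region, by gene, coloured by region list; the dashed line is the median width of all DE only regions, 119 bp. Pcsk6 has 1 of 6 regions above the line, Smad3 has 4 of 6, and the widest region, 456 bp, is at Smad3.

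Most protein-coding genes had 0 or 1 DE only regions, and the 9 genes spread over the lower part of that distribution with 3 further up. Acvr1b, Acvr2a and Smad4 had 0, as did 49.9% of genes of any territory length. Acvr2b and Furin had 1 each, and 50.1% of genes had at least 1. Smad7 had 2, a count reached by 26.8% of genes. Smad2, Smad3 and Pcsk6 had 6 each, a count reached by 4.50% of genes. These 3 also have the longest territories of the 9, 217, 210 and 273 kb. The median was 1 DE only region for the 9 genes and 1 for all genes, and the mean was 2.44 against 1.26.

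**Figure D4:**
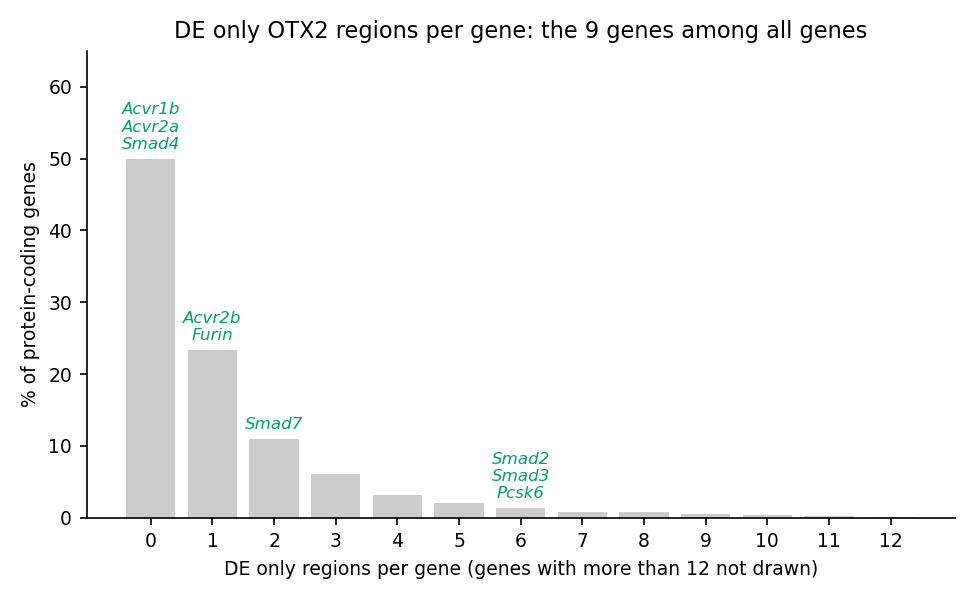
Share of all 21887 protein-coding genes in percent (vertical axis) by number of DE only regions per gene (horizontal axis), with the 9 genes named above the bar of their own count. Smad2, Smad3 and Pcsk6 stand at 6 regions, and 4.50% of genes have 6 or more.

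Promoter sequence was available for 6 of the 9 genes, in 7 windows of 300 bases, and was not used here for Smad2, Smad4 and Smad7. The OTX2 letters TAATCC occurred in 0 of the 7 windows on either strand, against 6.42% of 21263 windows of protein-coding genes. Among the 2989 of those windows that overlap a DE only region the share was 6.09%. The SMAD letters CAGAC occurred in 4 of the 7 windows, at Acvr2a, Acvr2b and both starts of Furin, against 48.4%. The forkhead letters TGTTTAC occurred in 1 window, at Furin, against 3.01%. The TCF/LEF letters ATCAAAG (3.22% of all windows), the GATA letters AGATAA (9.65%) and the T-box letters GGTGTGA (3.68%) occurred in 0 of the 7. All were read on both strands, and no motif contains another. GC content was 67.7% to 82.3% in 6 of the 7 windows and 51.3% in that of the outer Furin start (80405436), against a median of 56.3% over all windows.

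The wider families include the genes described so far. The 12 receptor genes of the TGF-beta superfamily had 19.3 regions per Mb, against 18.1 per Mb over all genes. A region was present at 10 of the 12 (83.3%, against 54.7% of all genes), and 3 had one in a list that includes PS (25%, against 20.1%). Acvr1, Bmpr1b and Bmpr2, receptor genes that also serve BMP signals, had 5 DE only regions each, a count reached by 6.57% of genes. The numbers due at the mean rate were 2.37, 5.30 and 2.27, so Bmpr1b was not above it. Amhr2 had 0 like Acvr2a. Tgfbr2, the TGF-beta type II receptor gene, was picked out after its values were seen, and had 3 PS and DE and 2 DE only regions. The 8 SMAD genes had 35.9 regions per Mb, and 4 had a PS and DE region, 50% against 16.3% of all genes. Smad1, a transducer of BMP signals, had 6 PS and DE and 4 DE only regions, and Smad6, an inhibitory SMAD gene next to Smad3, had 2 and 10. Together Smad1 and Smad6 held 8 of the family's 10 PS and DE regions. Smad9 had 0 regions, as had Smad4. The 9 proprotein convertase genes had 12.7 regions per Mb, below the 18.1 per Mb over all genes, and 7 of them (77.8%) had a region. Among these 9 genes, Furin was the only one with a PS and DE region, 11.1% against 16.3% of all genes. Pcsk5 had 4 DE only regions, where 7.49 were due for its territory of 521 kb. Mbtps1, the site 1 protease gene, had 3 DE only regions, where 0.799 were due. Pcsk4 and Pcsk7 had 0.

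PS and DE regions were also counted at ligand, co-receptor and antagonist genes of the pathway. The 9 genes had 3 in 1.23 Mb, and the 14 ligand, co-receptor and antagonist genes had 15 in 0.805 Mb. These are 2.44 and 18.6 per Mb, against 13.1 per Mb at 12 housekeeping genes and 2.82 per Mb over all genes, and the differences between the lists were not tested. Cfc1, which encodes the NODAL co-receptor cryptic, had 5 PS and DE and 1 DE only region. Lefty1, which encodes a NODAL antagonist, had 1 EPI and PS and 3 PS and DE regions, and Nodal had 2 PS only, 1 PS and DE and 1 DE only region. Bambi, a pseudoreceptor gene, had 2 PS and DE and 3 DE only regions. Fstl3, Gdf1 and Inha had 0, and the territory of Gdf1 was nearly nil because a shorter gene overlaps it. In DE only, both lists were nearer each other, with 17.9 per Mb at the 9 genes and 14.9 per Mb at the ligand list.

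Among 16 partners and regulators of SMAD2 and SMAD3, 14 had a DE only region, 87.5% against 50.1% of all genes, and 6 had a PS and DE region, 37.5% against 16.3%. Pmepa1, a feedback inhibitor gene of the pathway, had 1 PS only, 2 PS and DE and 9 DE only regions. Eomes, a T-box factor that acts with SMAD2 and SMAD3, had 1, 5 and 3. Trim33, which encodes a ubiquitin ligase that binds SMADs, had 1 EPI and PS and 7 DE only regions, and Nedd4l, another ubiquitin ligase gene, had 2 PS and DE and 5 DE only regions. Smurf2 had 0. The 12 housekeeping genes also lay above the background, with 4 hit in PS and DE (33.3%) and 7 in DE only (58.3%). Actb and Ywhaz had 5 regions each, and Gapdh had 2. The PS and DE share of the 9 genes, 33.3%, was thus no higher than that of the housekeeping genes.

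**Figure D5:**
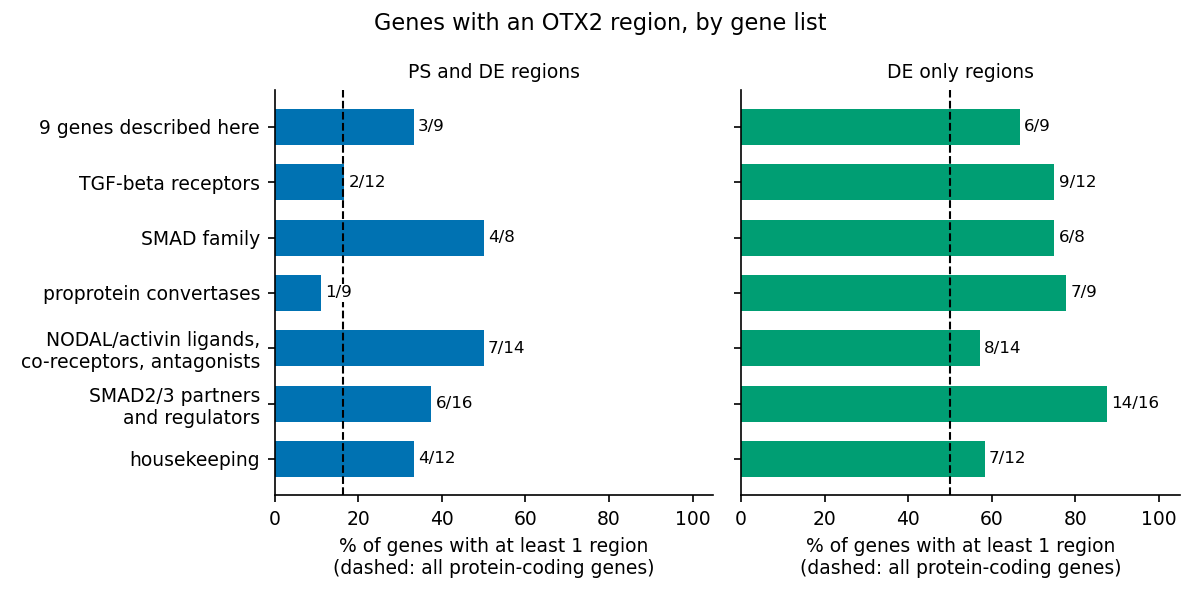
Percentage of genes with at least 1 OTX2 region (horizontal axis) for the 9 genes and 6 gene lists, in PS and DE (left) and DE only (right), with counts beside the bars; dashed lines mark all protein-coding genes, 16.3% and 50.1%. The receptor, SMAD and convertase lists contain the 9 genes, and the housekeeping bars lie above both dashed lines.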

How the data were processed

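The authors deposited 4 region lists with 3 columns, chromosome, start and end, in base coordinates and with no score. Per the submitters' processing notes, the build was mm10 and the tools were MACS2 2.2.6, bedtools 2.30, Picard 2.26.10, SAMtools 1.14 and Bowtie2 2.3.5.1. How thresholds were set, whether IgG was used and how replicates and stages were combined was not stated in the labels. These steps affect how many regions each list holds. Labels put 3 PS libraries in the anti-HA group and 1 in the IgG group.

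Starts were converted to count from 1. Genes and promoter windows came from RefSeq GRCm38.p6, which is mm10, and all 9 symbols matched, as did all fixed-list symbols. The assignment rule was tested on simulated data. The number due at the mean rate is a list's assigned regions per base of all gene territories times the gene's territory. Wilson and exact Poisson intervals were computed at 95% with SciPy 1.17.1. No test across samples was possible. Motifs could be searched in promoter windows only, since no genome sequence was used here.

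Text names all 9 genes, the 4 genes per other list with the most regions, list genes with 0 regions where 4 or fewer, and bordering genes, except 1 gene that is not reported here. The 9 genes and the lists were chosen with earlier results of these data known.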

Additional observations from a re-analysis of the deposited data

How the results depend on the processing

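Under 8 alternatives, 57 of 64 recomputed counts of regions or of genes hit stayed within 1.5 times the reported count, and 7 did not. The 57 include the EPI and PS counts, which were 0 in every setting. A shorter distance limit, a width minimum or competition by all RefSeq genes could not raise a count of 0. Those values were thus fixed in advance. A change of exactly 1.5 times counted as within, such as 6 to 4 genes in DE only with all RefSeq genes competing. With assignment within 1 Mb, PS only had 2 regions at 2 genes, by the added region upstream of Acvr2a. With regions of at least 150 bp, PS and DE had 1 region at 1 gene and DE only had 10 regions. With narrower regions than the median of each list left out, DE only had 11. With all RefSeq genes competing, DE only had 13, since noncoding genes and a pseudogene took 10 of the 26 regions (9 DE only and 1 PS and DE). By construction the width settings leave fewer regions. Assignment by the nearest gene end alone gave 23 DE only regions at 7 genes, by 1 region at Acvr2a. Assignment within 50 kb and any base in place of the midpoint changed no count at the 9 genes, and merging within 500 bp lowered Smad2 and Pcsk6 by 1 DE only region each. The planned wider motif window around each region was not run, because no genome sequence was used here.

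No paired analysis was possible because the lists carry no value per library, and leaving out a replicate was not possible for the same reason. Depth per library is unknown, so a count of 0 regions does not show that binding is absent. Regions near 1 gene are not independent of each other, but the intervals treat them as independent.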

Other observations

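Smad3 and Smad6 are neighbours on chromosome 9, with 195 kb between them, and their territories together held 16 DE only and 2 PS and DE regions. The DE only numbers due at the mean rate were 3.02 at Smad3 and 3.08 at Smad6. Smad6 alone had 10 DE only regions, a count reached by 1.17% of protein-coding genes, and both PS and DE regions belonged to it. Smad2 likewise borders Zbtb7c, 92.5 kb below it, which had 13 DE only regions and 1 PS and DE region. No number due was computed for Zbtb7c. Empty neighbours were found beside several of the genes: Aagab next to Smad3, Skor2 next to Smad2, Elac1 next to Smad4, and Tm2d3 and Snrpa1 next to Pcsk6 had 0 regions in all 4 lists. Empty genes are common, since only 54.7% of all protein-coding genes had a region in any list. Others were not empty, and Mex3c next to Smad4 had 1 PS and DE and 1 DE only region. Dym and Ctif, on either side of Smad7, had 6 and 7 DE only regions, and Ctif also had 1 PS and DE region. Blm next to Furin had 5 DE only regions, and Exog next to Acvr2b had 2. These are descriptions of neighbouring territories, and the gene on which a region between them acts was not tested.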
